A study of Mus musculus with 8 samples.

Results

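The genes described here are 10 genes of the NRF2 pathway and of antioxidant defense, taken by name (Nfe2l2, Nfe2l1, Keap1, Gclc, Gclm, Hmox1, Nqo1, Txnrd1, Sod1 and Sod2) from 21887 protein-coding genes of the mouse. All 10 were found in the gene table, and 9 of them had a phospho-CREB1 peak in their span or within 10000 bp of it. Phosphorylated CREB1 was profiled by chromatin immunoprecipitation and sequencing (ChIP-seq) in muscle of male Balb/c mice. C26 mice had been injected under the skin with C26 murine adenocarcinoma cells at 2 months of age, and CTRL mice were the controls, whose age and handling the labels do not give separately. Each group had 2 phospho-CREB1 libraries, C26 replicates 1 and 2 and CTRL replicates 1 and 2, and 4 input libraries completed the 8 samples. The protocol adds injections of rolipram, an inhibitor of phosphodiesterase 4, or of its ethanol vehicle to the C26 animals, without saying which the profiled mice received. The sample labels name gastrocnemius where the extraction protocol has quadriceps, and the protocol gives the antibody as one to CREB or to phospho-CREB1, so the tissue is called muscle and the target phospho-CREB1 as in the titles. Whether the replicates came from different animals is not stated.

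NRF2, the product of Nfe2l2, is a basic leucine zipper transcription factor that is degraded under resting conditions and escapes degradation when cells meet oxidants or electrophiles. KEAP1 holds it for ubiquitination by a CUL3 ligase. Once stable, NRF2 pairs with small MAF proteins on antioxidant response elements and drives genes for glutathione synthesis, thioredoxin reduction, quinone detoxification and heme breakdown. CREB1 binds the cAMP response element (CRE) and is activated by phosphorylation, for example by protein kinase A. In skeletal muscle, mitochondrial respiration and contraction are sources of superoxide, which the superoxide dismutases SOD1 and SOD2 turn into hydrogen peroxide.

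The promoter windows of 6 genes are shown first, because the peaks described below lie on or beside them and because they differ in the response-element letters that they hold. Each window runs from 250 bases before to 50 bases after an annotated transcription start, is read 5′ to 3′ on the gene's strand, and comes from RefSeq on GRCm38.p6, a C57BL/6J assembly, whereas the mice were Balb/c. Capitals mark exact matches, on either strand, to the short form of the CRE, TGACG, or to the core antioxidant response element TGACNNNGC. The full CRE, TGACGTCA, was also searched and was in none of the windows of these genes. A short CRE and a core element can share the letters TGAC, as they do in Gclm. The windows are those of Nfe2l2 (chr2:75704614-75704913, minus strand), Nfe2l1 (chr11:96829919-96830218, minus strand), Gclm (chr3:122245307-122245606, plus strand), Txnrd1 at its start inside the span (chr10:82858956-82859255, plus strand), Sod1 (chr16:90220512-90220811, plus strand) and Sod2 (chr17:13007589-13007888, plus strand).
Nfe2l2: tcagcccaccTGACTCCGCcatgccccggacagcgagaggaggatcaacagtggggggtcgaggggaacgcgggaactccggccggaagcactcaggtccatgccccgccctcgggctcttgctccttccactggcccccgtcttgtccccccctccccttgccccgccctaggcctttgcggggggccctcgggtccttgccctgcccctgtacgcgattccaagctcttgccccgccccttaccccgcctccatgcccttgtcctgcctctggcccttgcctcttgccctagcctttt
Nfe2l1: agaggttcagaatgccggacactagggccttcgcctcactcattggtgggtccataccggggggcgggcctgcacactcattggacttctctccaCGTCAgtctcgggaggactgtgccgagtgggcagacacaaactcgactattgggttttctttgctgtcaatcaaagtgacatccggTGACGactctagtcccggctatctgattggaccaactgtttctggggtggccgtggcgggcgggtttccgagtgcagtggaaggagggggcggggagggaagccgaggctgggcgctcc
Gclm: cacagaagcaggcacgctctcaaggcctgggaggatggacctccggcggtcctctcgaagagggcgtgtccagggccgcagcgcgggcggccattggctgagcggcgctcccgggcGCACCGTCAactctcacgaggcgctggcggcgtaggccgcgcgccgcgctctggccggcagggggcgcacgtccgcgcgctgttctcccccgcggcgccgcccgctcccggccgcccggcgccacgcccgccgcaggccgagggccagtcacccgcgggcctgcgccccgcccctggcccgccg
Txnrd1: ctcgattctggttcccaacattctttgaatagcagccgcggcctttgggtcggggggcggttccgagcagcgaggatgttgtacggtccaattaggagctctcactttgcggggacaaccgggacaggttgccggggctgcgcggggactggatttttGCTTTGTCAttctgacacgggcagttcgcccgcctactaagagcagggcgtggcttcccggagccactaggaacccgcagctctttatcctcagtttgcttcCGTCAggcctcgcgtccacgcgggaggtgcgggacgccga
Sod1: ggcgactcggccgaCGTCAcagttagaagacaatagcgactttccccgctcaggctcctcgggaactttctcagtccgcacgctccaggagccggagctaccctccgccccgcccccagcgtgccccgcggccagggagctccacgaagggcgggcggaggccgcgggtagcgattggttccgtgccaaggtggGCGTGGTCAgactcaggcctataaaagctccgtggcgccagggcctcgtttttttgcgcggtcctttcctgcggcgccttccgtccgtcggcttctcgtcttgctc
Sod2: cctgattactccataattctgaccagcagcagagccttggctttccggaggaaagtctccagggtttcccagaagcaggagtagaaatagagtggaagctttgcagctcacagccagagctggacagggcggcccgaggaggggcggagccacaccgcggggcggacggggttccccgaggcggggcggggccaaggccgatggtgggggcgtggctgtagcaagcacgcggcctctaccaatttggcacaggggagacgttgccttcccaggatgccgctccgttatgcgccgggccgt

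The 4 peak lists held 7482 peaks (C26 replicate 1), 4051 peaks (C26 replicate 2), 10835 peaks (CTRL replicate 1) and 14975 peaks (CTRL replicate 2), each called by the authors against an input library of its group. Read counts were not analysed here, so the depth behind a peak or behind its absence is unknown. Fold enrichment over input and −log10 q are the authors' peak caller's own values for each peak, and the percentile of a peak is its place by −log10 q among the peaks of that library, where 100 is the strongest. A longer list holds more weak peaks, so a shared site tends to a higher percentile in it, and no change is read from percentiles or enrichments of different lists. With 2 libraries against 2, an exact two-sided permutation test cannot give a p below 0.333, and no test of a difference between the groups was made. Lower binding in each nucleus and binding in fewer nuclei cannot be told apart in such tissue. A summit within 1000 bp of a gene end was found at 2 of 12 skeletal muscle marker genes in the C26 pair (13.0% of all genes) and at 9 of the 12 in the CTRL pair (32.2%), and 3 of the 12 had one in the CTRL pair and in no C26 library (7.40%). Of the other markers, 0 of 7 endothelial, 0 of 6 fibroblast, 0 of 8 leukocyte and 0 of 6 colon epithelium genes had one in either pair. These are binding sites and not expression levels.

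Phospho-CREB1 peaks lay at or near nearly all of these genes in 3 libraries and at fewer of them in C26 replicate 2. With the window of 10000 bp, peaks were found at 9 of the 10 genes in C26 replicate 1, 4 in C26 replicate 2, 9 in CTRL replicate 1 and 9 in CTRL replicate 2. The share of all protein-coding genes with a peak under the same rule was 37.8%, 22.8%, 47.3% and 53.8% in that order. The C26 pair of libraries shared 4 genes with a peak (Gclm, Nfe2l1, Nfe2l2 and Sod2), against 21.1% of all genes, and the CTRL pair shared 9, against 45.4%. All 4 libraries had one at these 4 genes, against 20.8% of all genes. A peak in the CTRL pair with none in a C26 library was found at 0 of the 10 genes, against 8.72% of all genes, and the reverse at 0, against 0.0366%. The count for the C26 pair rested on C26 replicate 2, the shortest list. Without it the pair is C26 replicate 1 alone, with 9 genes against 37.8% of all genes. The count for all 4 was then 9 too. Without C26 replicate 1, the count for CTRL but not C26 libraries was 5 (Gclc, Hmox1, Keap1, Sod1 and Txnrd1). For this count and that for all 4 with a library left out, the share of all genes was not computed. Trimming each list to the length of the shortest left peaks at 4 genes in the C26 pair and 6 in the CTRL pair. All 4 trimmed lists had one at 3 genes (Gclm, Nfe2l1 and Sod2), so Nfe2l2 dropped out. The count for CTRL but not C26 libraries stayed at 0. The median span of the 10 genes was 13768 bp, with a range of 5572 to 63774 bp, against a median of 17169 bp for all genes. Whether gene length bears on these counts was not tested.

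**Figure D1:**
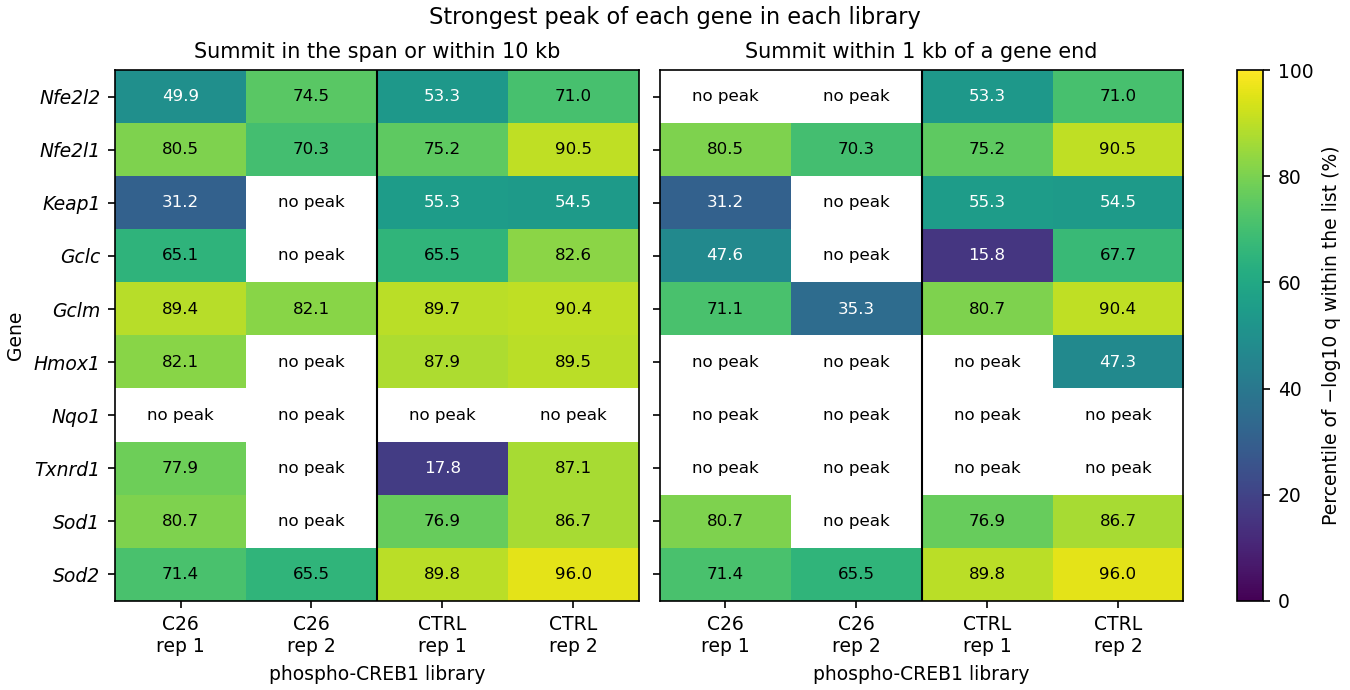
Percentile by −log10 q of the strongest peak at each of the 10 genes (rows) in the C26 and CTRL libraries (columns), with summits in the span or within 10000 bp on the left and within 1000 bp of a gene end on the right. Nqo1 has no peak in any library, and C26 replicate 2 has a peak at 4 genes on the left and 3 on the right.

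A stricter view used end peaks, whose summit lay no more than 1000 bp from either gene end. End peaks were found at 6 of the 10 genes in C26 replicate 1, 3 in C26 replicate 2, 7 in CTRL replicate 1 and 8 in CTRL replicate 2. The shares of all genes were 26.1%, 14.0%, 33.9% and 40.1% in that order. The C26 pair shared 3 genes (Gclm, Nfe2l1 and Sod2), against 13.0% of all genes, and the CTRL pair 7, against 32.2%. All 4 libraries had one at these 3 genes, against 12.7% of all genes. An end peak in C26 replicate 1 and the CTRL pair but not in C26 replicate 2 was found at Gclc, Keap1 and Sod1, against 11.3% of all genes. Nfe2l2 was the one gene with an end peak in the CTRL pair and in no C26 library, against 7.40% of all genes, and 0 genes had the reverse, against 0.0274%. Without C26 replicate 2 the C26 pair is C26 replicate 1 alone, with 6 genes against 26.1% of all genes. The count for all 4 libraries was then 6 too. That for CTRL but not C26 libraries was 4 without C26 replicate 1 and 2 without CTRL replicate 1. The call at Nfe2l2 ended when the window was widened to 2000 bp. It also ended with lists trimmed to equal length (the 4051 peaks of lowest q), which left end peaks at 3 genes in the C26 pair and 4 in the CTRL pair. Shares of all genes were not computed with trimmed lists, nor for all 4 or CTRL but not C26 libraries with a library left out. With annotated transcription starts in place of gene ends, 3 of the 8 genes with an entry had a peak in the C26 pair (13.9% of 17492 genes), 7 in the CTRL pair (34.8%), 3 in all 4 libraries (13.7%) and 1, Nfe2l2, in CTRL but not C26 libraries (7.98%).

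Peaks that overlapped by at least 1 bp were joined into sites, and the 52 peaks at these genes in the 4 lists made 22 sites. Of these sites, 4 had a peak in all 4 libraries, 8 in C26 replicate 1 and the CTRL pair, and 1 in the CTRL pair alone. The remaining 9 sites had a peak in 1 library only, 2 of them in C26 replicate 1, 1 in C26 replicate 2 and 6 in CTRL replicate 2. No site had peaks in both C26 libraries without a CTRL peak. Summits within 1000 bp of an end of the gene itself made up 24 of the 52 peaks, and 29 summits were inside a span. Shares over all sites and peaks of the series were not computed, so these counts describe the 10 genes only. In all, 13 sites had a peak in both CTRL libraries. Joining peaks at 50% overlap of both, or at summits within 200 bp, gave 11, and sites in all 4 libraries stayed at 4.

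**Figure D2:**
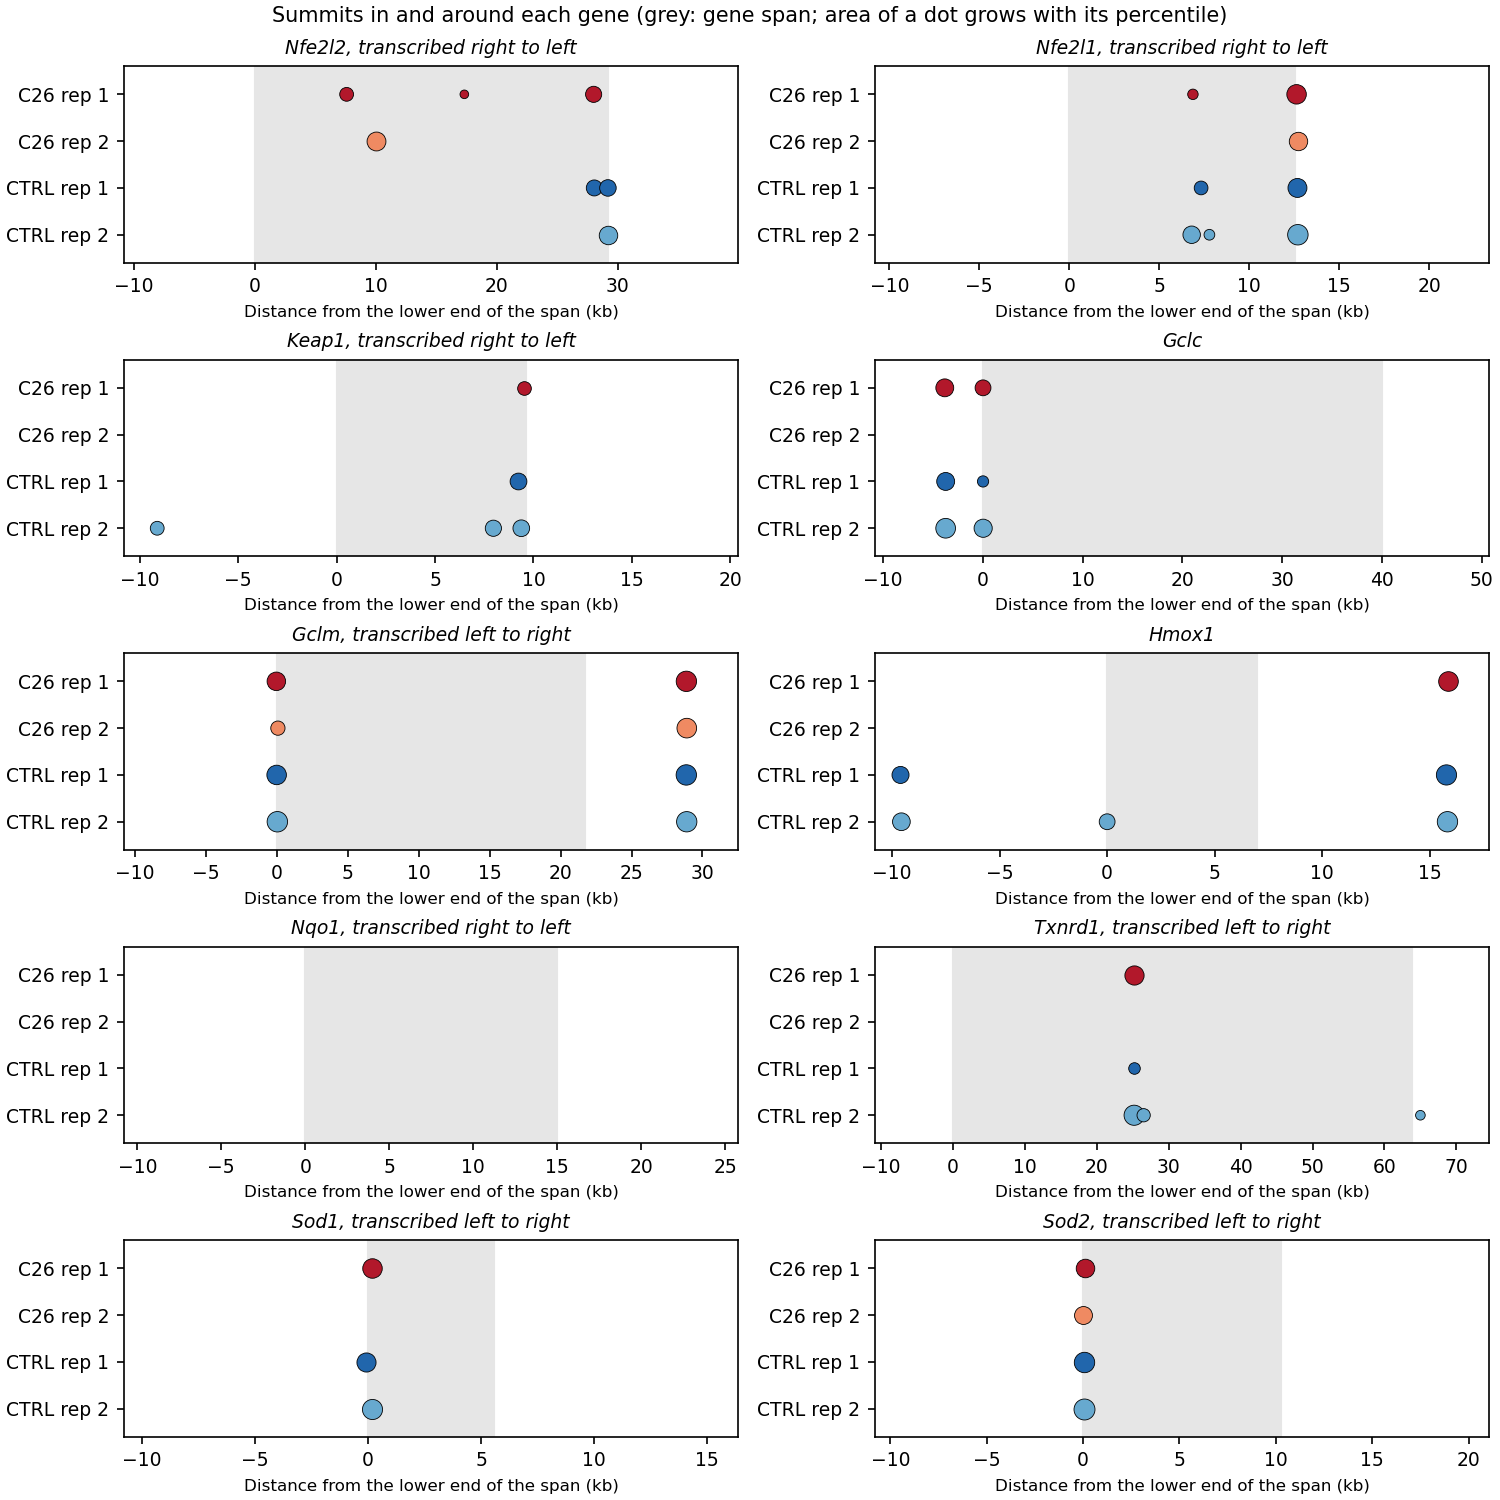
Summit positions at each gene, as the distance in kb from the lower-coordinate end of the span (grey band), with a row for each C26 and CTRL library and a dot area that grows with the peak's percentile. Summits of different libraries fall together at gene starts, while the deep inner sites of Nfe2l2 appear in C26 libraries only and at different places.

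Of the regulators, Nfe2l2 itself (chromosome 2, 75675513 to 75704663) shared 1 site between C26 replicate 1 and the CTRL pair, in which the summits differed in place. The CTRL libraries both had a summit at the transcription start at 75704663. In CTRL replicate 1 that peak ran from 75704427 to 75705084, with its summit 30 bp from the start, 6.05-fold enrichment and percentile 53.3. In CTRL replicate 2 it ran from 75703389 to 75705271, a width of 1883 bp, with its summit 16 bp from the start, 9.64-fold enrichment and percentile 71.0. The nearest C26 peak, in replicate 1, ran from 75703426 to 75704163 and had its summit 1150 bp inside the gene, with 5.81-fold enrichment and percentile 49.9. CTRL replicate 1 had a separate peak at that inner place too, with its summit 1096 bp inside the gene, 5.29-fold enrichment and percentile 48.8. The inner place was thus occupied in C26 replicate 1 and in the CTRL pair, and the start itself held a summit in the CTRL libraries only.

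C26 replicate 2 had a single peak at Nfe2l2, deep in the gene. It ran from 75685431 to 75685914, 10033 bp from the downstream end of the span, with 9.88-fold enrichment and percentile 74.5. C26 replicate 1 had weaker inner peaks at 75682872 to 75683176 (4.45-fold, percentile 32.3) and at 75692629 to 75692882 (3.66-fold, percentile 2.45). None of these 3 inner peaks overlapped a peak of another library. The presence of a peak at Nfe2l2 in all 4 libraries is therefore a statement about the gene and not about 1 shared site. The start window held a core antioxidant response element at position -240, counting the start as 0, and no short CRE.

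Nfe2l1 encodes NRF1, a relative of NRF2 that is anchored in the endoplasmic reticulum and drives proteasome genes when proteasome activity falls. It lay at chromosome 11, 96817414 to 96829968, and had a site at its upstream start in every library. The enrichment there was 7.79-fold in C26 replicate 1 and 8.97-fold in C26 replicate 2, against 8.63-fold in CTRL replicate 1 and 18.3-fold in CTRL replicate 2. The percentiles were 80.5 and 70.3 in the C26 libraries and 75.2 and 90.5 in the CTRL libraries. The summits lay 84, 144, 133 and 156 bp before the start in the same order of libraries, so the 4 libraries placed the site within a stretch of less than 100 bp. The window printed above holds the short CRE TGACG at positions -155 (on the opposite strand) and -69. Summits of C26 replicate 2, CTRL replicate 1 and CTRL replicate 2 lay 9, 20 and 3 bp from the first, and that of C26 replicate 1 lay 17 bp from the second.

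A further Nfe2l1 site lay beside inner transcription starts, and only the edge of the CTRL replicate 2 peak reached a start. Its summits were 164, 618 and 94 bp before the nearest start in C26 replicate 1, CTRL replicate 1 and CTRL replicate 2. The peaks were 3.76-fold in C26 replicate 1 (96824190 to 96824546, percentile 11.3), 5.60-fold in CTRL replicate 1 (percentile 31.6) and 9.12-fold in CTRL replicate 2 (percentile 61.1). This site was weaker than the upstream start in each of these lists. CTRL replicate 2 had an additional weak peak at 96825189 to 96825571 (4.40-fold, percentile 12.9).

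Keap1 (chromosome 9, 21229730 to 21239332), the adaptor that presents NRF2 to the CUL3 ligase, had a peak just inside its start in 3 libraries. It reached 4.24-fold enrichment and percentile 31.2 in C26 replicate 1 (21238863 to 21239381), against 6.87-fold and percentile 55.3 in CTRL replicate 1 and 7.47-fold and percentile 54.5 in CTRL replicate 2. C26 replicate 2 had no peak in the window. These were middling to weak peaks of their lists, and the Keap1 start window held none of the searched letters. CTRL replicate 2 alone had further peaks 1638 bp inside the start (7.45-fold) and 9105 bp past the other end (5.28-fold). The nearest gene end to that last summit belonged to the phosphodiesterase gene Pde4a, 7377 bp away.

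Glutathione is made from cysteine, glutamate and glycine, and its first step is catalyzed by the enzyme whose catalytic subunit is Gclc and whose modifier subunit is Gclm. Both genes carried a peak at an end, and both had a peak elsewhere in the window. Gclc (chromosome 9, 77754535 to 77794489) had an end peak of 6.37-fold in C26 replicate 1 (percentile 47.6), against 4.68-fold in CTRL replicate 1 (percentile 15.8) and 9.32-fold in CTRL replicate 2 (percentile 67.7). C26 replicate 2 had no peak. The summits were 32, 34 and 46 bp from the span's lower end. A further Gclc site lay outside the span, 3798 bp from that end in C26 replicate 1 (77750564 to 77750959, 5.84-fold, percentile 65.1), 3708 bp in CTRL replicate 1 (8.11-fold, percentile 65.5) and 3711 bp in CTRL replicate 2 (14.6-fold, percentile 82.6). It had a higher percentile than the end peak in all 3 libraries but a lower enrichment in C26 replicate 1, and no other protein-coding gene end was nearer.

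Gclm (chromosome 3, 122245487 to 122267215) had an end peak in all 4 libraries. The enrichment was 6.22-fold in C26 replicate 1 and 6.12-fold in C26 replicate 2, against 9.95-fold in CTRL replicate 1 and 20.1-fold in CTRL replicate 2, with percentiles of 71.1 and 35.3 in the C26 lists and 80.7 and 90.4 in the CTRL lists. By rank, the peak was number 2157 and 2604 in the C26 lists and number 2090 and 1433 in the CTRL lists. The Gclm window holds the letters GCACCGTCA, in which a core antioxidant response element and a short CRE overlap on the opposite strand. Summits of C26 replicate 1, CTRL replicate 1 and CTRL replicate 2 lay 12, 32 and 82 bp from the short CRE, while the peak of C26 replicate 2 began just past it, at 122245432. The second site, 7137 bp beyond the other end in C26 replicate 1, was also in all 4 libraries (14.7- and 11.7-fold in the C26 libraries, 20.3- and 17.8-fold in the CTRL libraries). Its summits lay 33 to 67 bp from an end of Dnttip2, so it is that gene's site by distance.

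Hmox1 encodes heme oxygenase 1, which breaks heme down to biliverdin, iron and carbon monoxide, and lay at chromosome 8, 75093618 to 75100593. A summit at the lower end of the span was found in CTRL replicate 2 alone (75093495 to 75093869, 7.08-fold, percentile 47.3). A distant site near the edge of the window, 9608 bp outside that end in CTRL replicate 1 and 9567 bp in CTRL replicate 2, had 7.32-fold (percentile 57.7) and 9.26-fold enrichment (percentile 63.6). It was the one site of the 22 with peaks in the CTRL pair and none in C26 muscle. The strongest peaks in the window, of 10.6-fold in C26 replicate 1 and 13.6- and 19.1-fold in CTRL replicates 1 and 2, lay 11, 70 and 24 bp from an end of Mcm5, a subunit of the replicative helicase. When peaks nearer to an end of another gene were set aside, Hmox1 became a gene with peaks in the CTRL pair and none in C26 muscle. That call rests on the distant site, and the share of all genes under this setting was not computed.

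Nqo1 (chromosome 8, 107388225 to 107403205) encodes the quinone reductase that is a standard reporter of NRF2 activity, and it had no peak within 10000 bp in any library. The nearest summit was 94854 bp away in C26 replicate 1, 190119 bp in C26 replicate 2, 94837 bp in CTRL replicate 1 and 21928 bp in CTRL replicate 2. The summits of C26 replicate 1 and CTRL replicate 1 lay at an end of Nfat5 and that of CTRL replicate 2 at an end of Nob1. The same rule gave no peak in any library at 43.6% of all genes. The start window of Nqo1 held none of the searched letters.

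Txnrd1 (chromosome 10, 82833951 to 82897724), the cytosolic thioredoxin reductase, had no end peak, because its site lay at a start inside the span. The summits were 94, 96 and 39 bp from the start at 82859206 in C26 replicate 1, CTRL replicate 1 and CTRL replicate 2. The enrichment was 9.63-fold in C26 replicate 1 (percentile 77.9), against 3.98-fold in CTRL replicate 1 (percentile 17.8) and 15.4-fold in CTRL replicate 2 (percentile 87.1). C26 replicate 2 had no peak. In the window printed above, the summits of C26 replicate 1 and CTRL replicate 1 lay 6 and 8 bp from the core antioxidant response element at position -92, and 106 and 108 bp from the short CRE at position 10. CTRL replicate 2 had its summit 49 bp from the one and 51 bp from the other, and further weak peaks at 82860344 to 82860647 (5.26-fold) and 1215 bp past the span (4.00-fold).

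Sod1 and Sod2 had the simplest arrangement, a single site at the transcription start. Sod1 (chromosome 16, 90220762 to 90226333) encodes the copper and zinc enzyme of the cytosol, and its peak had 8.94-fold enrichment in C26 replicate 1 (90220479 to 90221241, percentile 80.7), against 11.6-fold in CTRL replicate 1 (percentile 76.9) and 17.2-fold in CTRL replicate 2 (percentile 86.7). C26 replicate 2 had no Sod1 peak, and its nearest summit was 1421416 bp away. The short CRE in the Sod1 window, at position -236, was inside the peaks but 398, 143 and 391 bp from the summits of C26 replicate 1, CTRL replicate 1 and CTRL replicate 2, and the core element at position -56 was 216, 39 and 209 bp from them.

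Sod2 (chromosome 17, 13007839 to 13018119), the manganese enzyme of the mitochondrial matrix, had an end peak in all 4 libraries. The enrichment was 5.82-fold in C26 replicate 1 (13007695 to 13008246) and 8.55-fold in C26 replicate 2, against 15.0-fold in CTRL replicate 1 and 38.4-fold in CTRL replicate 2. Its place in the lists was number 2137 and 1387 in the C26 libraries and number 1101 and 600 in the CTRL libraries, or percentiles of 71.4 and 65.5 against 89.8 and 96.0. Each summit lay within 100 bp after the start, at 99, 18, 30 and 55 bp in the order C26 replicates 1 and 2, CTRL replicates 1 and 2. The Sod2 window held none of the searched letters, although its peak was the strongest of the group by −log10 q in the CTRL lists. By fold enrichment in CTRL replicate 1, the site at Dnttip2 in the Gclm window was higher (20.3-fold).

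**Figure D3:**
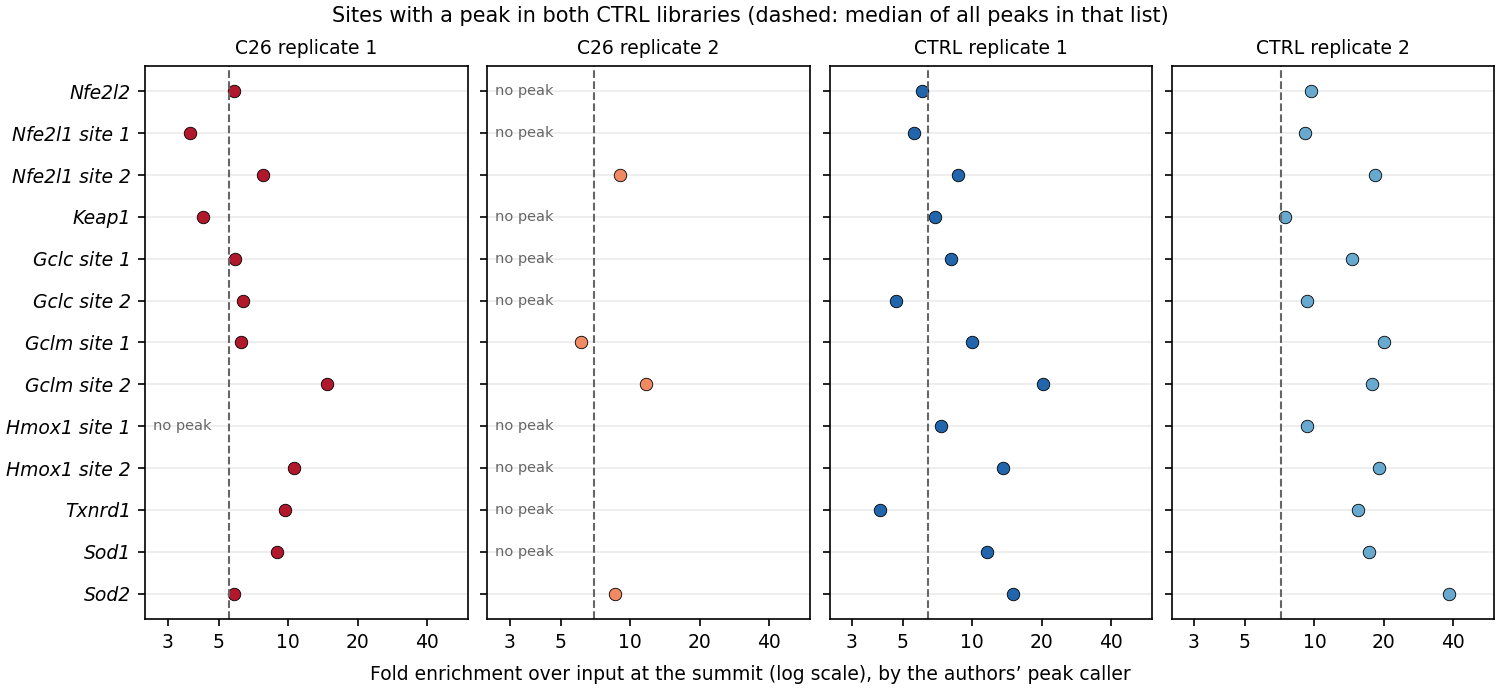
Fold enrichment over input at the summit (log axis, the authors' values) for the 13 sites found in the CTRL pair, with a panel for each C26 and CTRL library and a dashed line at the median of all peaks in that list. For Nfe2l1 site 1 is the inner site and site 2 the site at the upstream start, and for Gclc site 1 is the outer site. Gclm site 2 and Hmox1 site 2 lie at Dnttip2 and Mcm5, and Hmox1 site 1 is the one site with no peak in either C26 panel.

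As a description of the letters, 0 of the 14 start windows of 8 of these genes held the full CRE, against 2.23% of 21263 windows of protein-coding genes. The short CRE was in a single window of each of Nfe2l1, Gclm, Txnrd1 and Sod1, and in 23.6% of all windows. The core antioxidant response element was in a single window of each of Nfe2l2, Gclm, Txnrd1 and Sod1, and in 13.0% of all windows. These shares are of windows and not of genes, and Nfe2l1 has 5 of the 14 windows and Txnrd1 has 3. Over the whole series, the full CRE was in 10.0% of windows with a summit within 1000 bp in all 4 libraries, 5.19% of those with one in the CTRL pair and 0.759% of those with none in any library. The short CRE was in 59.0%, 42.7% and 13.0% of the same windows, and the core element in 19.2%, 16.0% and 11.1%. A match is a run of letters and not a measured binding site, and a window without a match covers only 300 bases.

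A wider list of 96 genes of the pathway was grouped by role. The C26 pair had an end peak at 16 of them (16.7%, against 13.0% of all protein-coding genes), and the CTRL pair at 56 (58.3%, against 32.2%). All 4 libraries had one at 16 (16.7%, against 12.7%), the CTRL pair but no C26 library at 14 (14.6%, against 7.40%) and the C26 pair but no CTRL library at 0 (against 0.0274%). In single libraries, 43 of the 96 genes had an end peak in C26 replicate 1, 18 in C26 replicate 2, 60 in CTRL replicate 1 and 73 in CTRL replicate 2. Without C26 replicate 2, the other 3 libraries all had one at 40 genes, and the count for CTRL but not C26 libraries was 38 without C26 replicate 1 and 28 without CTRL replicate 1. With each list trimmed to its 4051 strongest peaks, 13 genes had an end peak in the C26 pair, 16 in the CTRL pair, 11 in all 4 libraries and 3 in CTRL but not C26 libraries. Shares of all genes were not computed with trimmed lists or for these left-out settings. Such counts cannot be set against the shares above.

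Genes named from the lists with a peak in all 4 libraries were picked by the lower of their CTRL percentiles. That choice favours higher values in the CTRL lists, so no change is read from their enrichments. The list of genes that control NRF2 and NRF1 protein held 13 genes. All 13 had an end peak in CTRL replicate 2 (40.1% of all genes), 12 in the CTRL pair (32.2%) and 6 in all 4 libraries (12.7%), and none had one in the CTRL pair but no C26 library. Vcp, the ATPase that pulls NRF1 out of the endoplasmic reticulum, had 14.5- and 15.6-fold enrichment in C26 replicates 1 and 2, against 16.5- and 38.0-fold in CTRL replicates 1 and 2 (chromosome 4, 42999659 to 43000815 in CTRL replicate 2). Gsk3b, a kinase that marks NRF2 for degradation, had 7.07- and 8.15-fold in the C26 libraries, against 11.9- and 21.1-fold in the CTRL libraries. Of the 7 small MAF, BACH and related genes, 4 had an end peak in the CTRL pair and 2 in all 4 libraries. Mafk had a peak of 8.06- and 19.1-fold in the C26 libraries and 24.0- and 47.1-fold in the CTRL libraries (chromosome 5, 139790946 to 139792160 in CTRL replicate 2). Mafk encodes a DNA-binding partner of NRF2. Bach1 and Bach2, which encode repressors at antioxidant response elements, had end peaks in the CTRL pair and in no C26 library, with Bach2 at 5.09- and 7.96-fold.

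The thioredoxin and peroxiredoxin list had 11 of 17 genes with an end peak in the CTRL pair and 5 in all 4 libraries, against 32.2% and 12.7% of all genes. Txn2, the mitochondrial thioredoxin, had 6.53- and 14.6-fold enrichment in the C26 libraries, against 22.8- and 32.5-fold in the CTRL libraries. Txnl1, a thioredoxin-like protein gene, had 13.6- and 12.2-fold against 18.1- and 28.1-fold in the same order. Prdx5, a peroxiredoxin gene that shares its peak with Trmt112, had 8.44- and 5.76-fold in the C26 libraries and 17.4- and 15.4-fold in the CTRL libraries. Txn2, Txnl1 and Prdx5 were also picked by their CTRL percentiles, which favours higher values in the CTRL lists. In the same list, Txnip, which encodes an inhibitor of thioredoxin, had end peaks only in CTRL replicates 1 and 2 (5.55- and 5.16-fold), as did Prdx6 (5.75- and 9.48-fold).

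The remaining lists had end peaks in all 4 libraries at 2 of 20 genes of glutathione synthesis and use, 1 of 14 genes of NADPH supply, 0 of 7 genes of superoxide and peroxide removal and 0 of 18 genes of heme, iron and quinone detoxification, against 12.7% of all genes. The CTRL pair had an end peak at 9, 9, 3 and 8 genes of these lists, against 32.2%. Differences between the lists were not tested. Genes with an end peak in the CTRL pair but no C26 library included Glrx3, a glutaredoxin of iron and sulfur metabolism (7.47- and 11.4-fold in CTRL replicates 1 and 2), Aifm2, a coenzyme Q reductase that protects lipids from oxidation (6.50- and 10.5-fold), and the aldehyde reductase gene Akr1a1 (7.85- and 6.36-fold). All 96 list genes were also set beside Nfe2l2 and Keap1 by the percentile of the end peak in the 4 libraries, with 0 for no peak. Those nearest to Nfe2l2 were Aifm2, Glrx3 and Ngly1, with largest differences of 7.11, 7.21 and 13.7 percentile points. Ngly1, of the list of NRF2 and NRF1 control, had an end peak in C26 replicate 1 (percentile 7.12), where Nfe2l2 had none. The genes nearest to Keap1 were Aldh3a2, Fech and Idh1, at 14.1, 15.7 and 17.5 points.

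**Figure D4:**
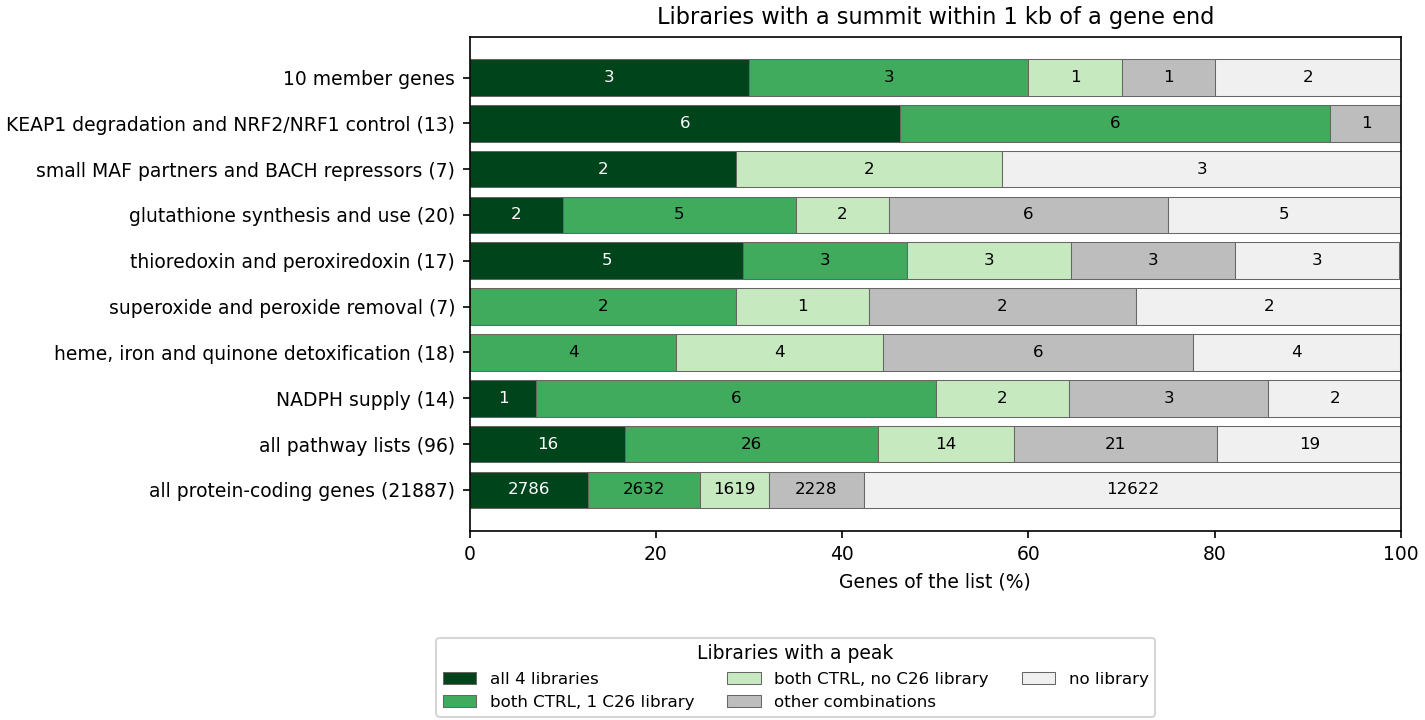
Share of genes (%) by the libraries in which they have a summit within 1000 bp of a gene end, for the 10 genes, 7 lists of other pathway genes and all protein-coding genes, with counts in the bars. A peak in all 4 libraries is found at 6 of 13 genes of NRF2 and NRF1 control and at none of 18 genes of heme, iron and quinone detoxification. The share of all protein-coding genes is 12.7%. These lists are ends of the range over the 7 lists, and differences between lists were not tested.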

How the data were processed

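Phospho-CREB1 ChIP-seq libraries of C26 and CTRL muscle came as 1 deposited peak list each. Per the labels' protocols, tissue was crosslinked in 1% formaldehyde for 15 minutes, sonicated to about 0.5 kb, and 5 µg of antibody went into the precipitation. The build was mm10 (GRCm38), and the tools were MACS2 2.1.4, SAMtools 1.6, Picard, Bowtie2 2.3.5.1 and FastQC 0.11.2, per the submitters' processing notes. Per the labels, peaks were called for each library against an input of its group at a q of 0.05, and a filter named in the labels only by an abbreviation is not explained. The fold enrichment over input (a ratio) and the −log10 q-value of each peak are as the authors deposited them, as are starts, ends and summits.

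Gene spans came from the GRCm38.p6 RefSeq table, restricted to protein-coding genes on 21 chromosomes. A gene had a peak when a summit lay in its span or within 10000 bp, and an end peak when a summit lay within 1000 bp of an end. The table gives no strand, and strand and transcription starts came from RefSeq promoter windows, which matched 8 of the 10 genes and 17492 of 21887 in all. Exons were not used here. The genes and the 7 lists were chosen with earlier results of these data known. Named genes of the lists were the 6 strongest by the lower CTRL percentile with a peak in all 4 libraries and the 6 strongest with CTRL peaks only. Other named genes were chosen after their values were seen (Bach1) or by likeness of percentile. Depth is unknown, and no test was made on 2 libraries per group. Peak assignment was tested on simulated data, in which the planted library pattern of all 200 genes was recovered. The planted genes were long and far from other genes, so ends shared by neighbours were not tested. Some had no planted peak in the window, and recovery there means that none was called. Python 3.11.15, pandas 2.3.3, NumPy 2.4.6 and Matplotlib 3.10.9 were used. Alternatives were other windows, a −log10 q of at least 3, trimmed lists, each library left out, other overlap rules and, chosen after seeing the data, transcription starts in place of gene ends.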

Additional observations from a re-analysis of the deposited data

How the results depend on the processing

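Of 108 recomputed counts, 88 stayed within 1.5 times of the reported count and 20 did not, of which 11 came from leaving out 1 library. Part of the 88 was fixed in advance, because leaving out a library of the other group cannot change the count for a pair. Leaving out any library only loosens a rule, so a count can stay or rise but not fall. The left-out ranges below therefore do not measure stability. With summits inside the span only, peaks in the C26 pair were found at 2 genes, in the CTRL pair at 5 and in all 4 libraries 1. With peaks nearest to the gene only, 1 gene, Hmox1, had a peak in the CTRL pair and no C26 library. That call rests on the distant site near the edge of the window. With a window of 5000 bp, Hmox1 no longer had a peak in both CTRL libraries. The nearest-only setting also set aside the Txnrd1 start, because an end of Eid3, a gene inside Txnrd1, is nearer than an end of Txnrd1. With lists trimmed to 4051 peaks, end peaks in the CTRL pair were found at 4 of the 10 genes and at 16 of the 96 list genes, and the counts for the CTRL pair without a C26 peak were 0 and 3. That count was also 0 of the 10 genes with a gene-end window of 2000 bp. Shares of all genes were not computed for the span-only, nearest-only, trimmed and 2000 bp settings.

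Leaving out each library in turn gave 4 to 9 genes in the C26 pair, 9 to 9 in the CTRL pair, 4 to 9 in all and 0 to 5 in CTRL but not C26 libraries under the window of 10000 bp. For end peaks the ranges in the same order were 3 to 6, 7 to 8, 3 to 6 and 1 to 4, and for the 96 list genes 16 to 43, 56 to 73, 16 to 40 and 16 to 38. Apart from the shares for single libraries, shares of all genes were not computed with a library left out or lists trimmed. With transcription starts in place of gene ends, the counts were 3 for the C26 pair, 7 for the CTRL pair, 3 for all 4 libraries and 1 for CTRL but not C26 libraries. No paired analysis was possible because the counts come from no test and the peak lists hold no value for a library without a peak. Depth limits what an absent peak shows, and the cause of the shorter C26 replicate 2 list was not tested.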
